A study of Mus musculus with 6 samples.

Results

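The unfolded protein response is read here through 10 genes of the mouse liver: Hspa5, Creld2, Sdf2l1, Dnajb9, Herpud1, Xbp1, Atf4, Ddit3, Trib3 and Atf3. They were picked as a named list of textbook members of the response. This choice and that of the wider lists below were made with earlier results of these data known. Each of the 10 was measured by its brightest probe set, by the mean of the 6 arrays, among probe sets annotated to exactly 1 gene symbol. They are 10 of the 18194 genes measured in this way. All 10 had a probe set that met this rule, and no filter on dim signals was applied.

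The livers came from C57BL/6 mice that carry the human CYP2D6 gene as a transgene, before pregnancy, at day 21 of pregnancy and at day 7 postpartum. Every group carried the transgene, so no mouse without it serves as a control. Each stage had 2 biological replicates with 1 array each, 6 arrays in all. The ages of the mice, the cell type in which the transgene is expressed, the time of day of collection and the feeding state are not stated in the sources used here, and a difference between stages cannot be told apart from a difference in these.

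When unfolded proteins build up in the endoplasmic reticulum (ER), the membrane sensors Ire1 (gene Ern1), Perk (gene Eif2ak3) and Atf6 start the unfolded protein response. Ire1 splices Xbp1 mRNA and Atf6 is cut to release a transcription factor, and both factors raise ER chaperones, folding enzymes and the machinery of ER-associated degradation. Perk phosphorylates the translation factor eIF2, which favours translation of Atf4 and, through it, transcription of Ddit3, Trib3 and Atf3. Hepatocytes secrete much of the protein of plasma and carry a large ER. Atf4 is also raised by amino acid shortage and other stresses through other eIF2 kinases, a network called the integrated stress response. An array of this kind measures the amount of mRNA and reports neither the splicing of Xbp1, nor the cutting of Atf6, nor phosphorylation.

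Values are on the log2 scale, where a difference of 1 is a doubling, and the levels of different genes are not set against each other because each probe set has its own brightness. Array medians lay between 5.09 and 5.15, and the 2 arrays of a stage correlated at 0.997 (pre-pregnancy), 0.994 (pregnancy) and 0.996 (postpartum). A gene is called changed where limma's moderated test gave an adjusted p under 0.05 (Benjamini-Hochberg over all 18194 genes, two-sided). The hepatocyte markers were bright in all 6 livers, with a summed linear level between 199201 and 210088. Of the 10 measured, 0 were called in any of the 3 comparisons. Several lay near the top of the signal range, such as Alb at 14.87 to 14.98 where array maxima were 14.91 to 15.05. A flat sum therefore says little of hepatocyte content. Tat stood at 12.80 and 12.78 before pregnancy, 11.95 and 12.88 at day 21 and 13.07 and 12.67 postpartum. In whole liver, fewer cells of a type and less RNA per cell cannot be told apart.

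Promoters are shown for the 3 members on which most of the results turn and whose start region holds a known element of the response. The ER stress response element (ERSE, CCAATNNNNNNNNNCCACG, the element through which Atf6 and Xbp1 act on chaperone genes) was found on either strand in 39 of 32851 mouse promoters of 300 bases, 0.119%, and among the members in Hspa5 and Creld2. Its shorter form ERSE-II (ATTGGNCCACG) was found in 12 promoters, 0.0365%, and among the members in Herpud1. The amino acid response core (TGATGCAA, bound by Atf4 with its partners) was found in 294 promoters, 0.895%, and among the members in Herpud1 and Atf3. None of the 10 members held the core of the unfolded protein response element (TGACGTGG, found in 0.676% of promoters) or the cyclic AMP response element (TGACGTCA, found in 1.79%) in this window. The 140 bases before each transcription start follow, from RefSeq on GRCm38.p6, 5′ to 3′ on the plus strand, which is the gene's own strand in all 3, with matches in capitals.
Hspa5, chr2:34771950-34772089: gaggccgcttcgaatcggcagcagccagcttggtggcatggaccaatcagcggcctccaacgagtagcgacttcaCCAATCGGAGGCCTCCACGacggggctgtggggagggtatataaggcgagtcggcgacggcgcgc
Creld2, chr15:88819506-88819645: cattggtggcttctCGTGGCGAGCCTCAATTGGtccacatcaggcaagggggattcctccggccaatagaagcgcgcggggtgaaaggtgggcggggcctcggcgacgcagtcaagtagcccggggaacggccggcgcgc
Herpud1, chr8:94386289-94386428: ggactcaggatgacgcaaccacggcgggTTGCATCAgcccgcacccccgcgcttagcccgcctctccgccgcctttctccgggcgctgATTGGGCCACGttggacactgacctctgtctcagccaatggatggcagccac
In Hspa5 the capitals are the ERSE, from base -65 to base -47 before the start. In Creld2 they are the ERSE read on the other strand, from -126 to -108. In Herpud1 the first capitals are the amino acid response core read on the other strand, from -112 to -105, and the second are ERSE-II, from -52 to -42. A match is a run of letters and is not evidence of binding in these livers.

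In pregnant livers Creld2 fell and Ddit3 rose, and the other 8 members did not pass the test. The share called was 2 of 10, against 13.7% of all genes (5.46% higher and 8.25% lower). Of all calls 39.8% were higher in pregnancy, and 52.8% after the arrays were quantile normalized again. The arrays did not overlap between the stages for 5 members, Ddit3, Atf4 and Trib3 higher in pregnancy and Sdf2l1 and Creld2 lower, against 59.6% of all genes (33.6% higher and 26% lower in pregnancy). The median difference of the 10 members was 0.01, beside 0.045 over all genes.

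**Figure D1:**
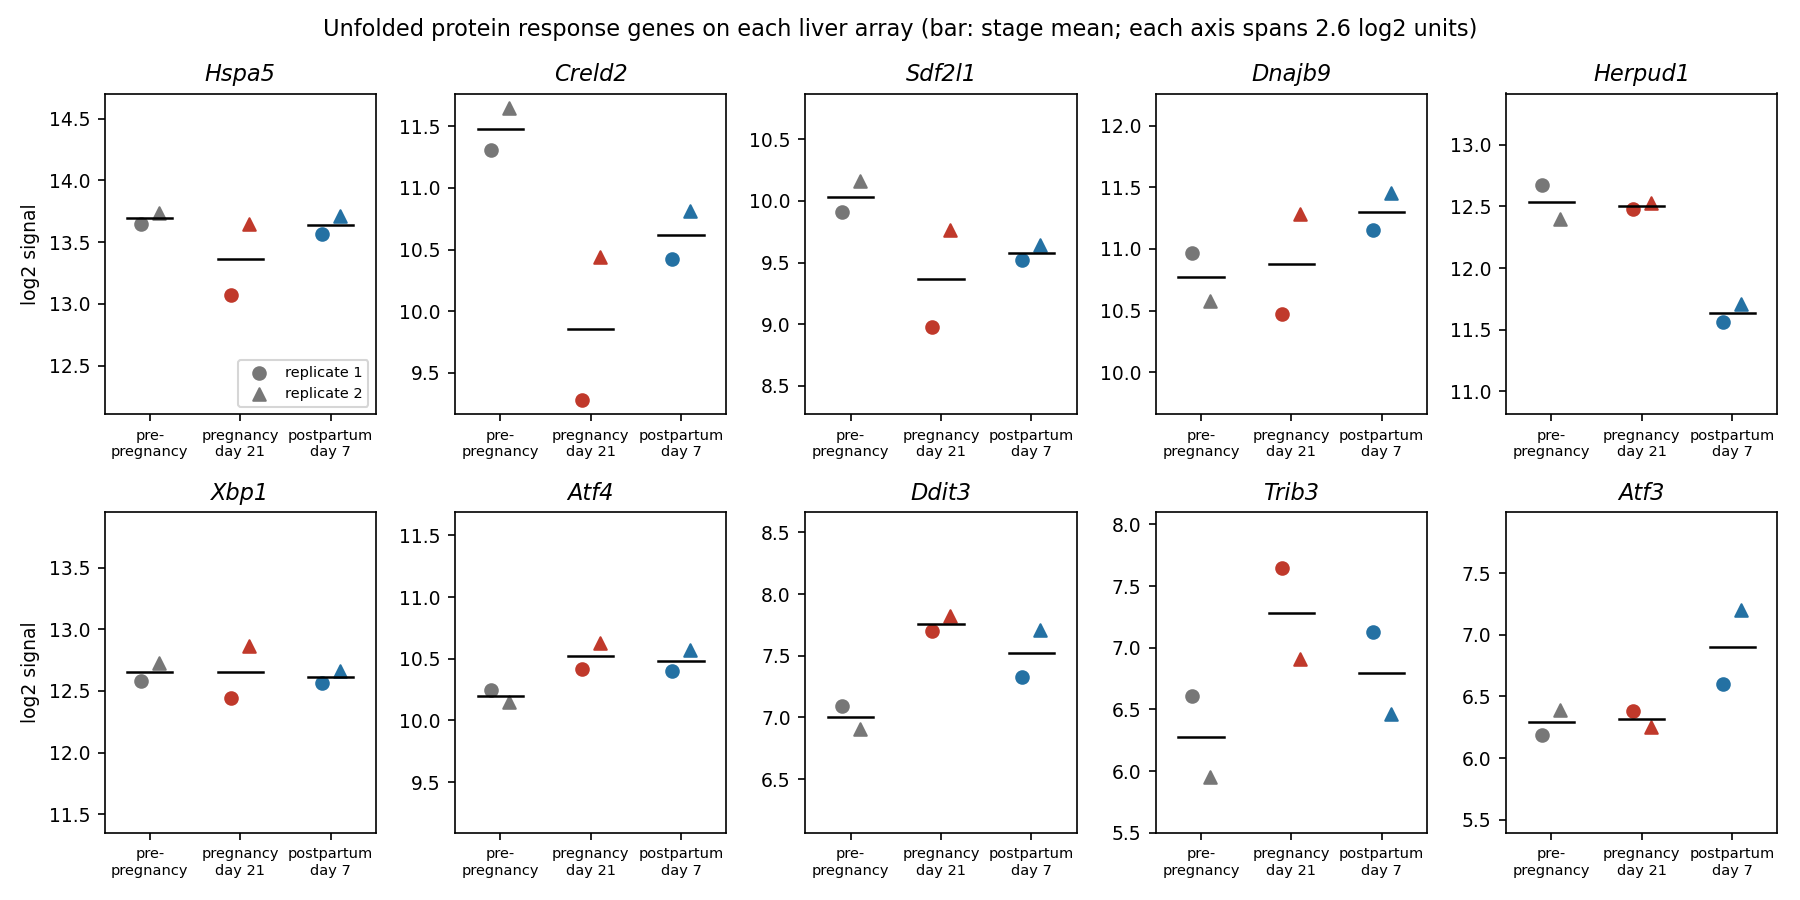
Level of each of the 10 genes (log2 signal, vertical axis, own range per panel) on every array, by stage from pre-pregnancy through pregnancy to postpartum. Points are single arrays (circle for replicate 1, triangle for replicate 2) and bars are stage means; pregnancy replicate 1 is the lowest of the 6 arrays for Hspa5, Creld2, Sdf2l1, Dnajb9 and Xbp1.

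Of the chaperone genes, Hspa5 encodes BiP, the main Hsp70 chaperone of the ER lumen and the protein that holds the sensors inactive. Hspa5 stood at 13.65 and 13.74 before pregnancy, 13.07 and 13.65 at day 21 and 13.57 and 13.71 postpartum. One pregnant liver, replicate 1, lay below the 5 other arrays, while pregnancy replicate 2 equalled the lower of the pre-pregnancy arrays. The difference in pregnancy was -0.335 ± 0.18 (SE, n = 2 per stage; limma adjusted p = 0.248), with a 95% interval from -0.75 to 0.08. Leaving out pregnancy replicate 2 gave -0.625, which passed (limma adjusted p = 0.0406), and leaving out replicate 1 gave -0.045. Postpartum, Hspa5 differed by 0.28 ± 0.18 from pregnancy (adjusted p = 0.427) and by -0.055 from pre-pregnancy (adjusted p = 0.913). In pregnancy against pre-pregnancy, the other probe sets of Hspa5 gave -0.395 and 0.19. Both are of kinds whose probes may match further sequences.

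Creld2 encodes a cysteine-rich ER protein with disulfide isomerase activity that is raised by ER stress, and it had the largest difference in pregnancy among the 10 members. Its level was 11.31 and 11.65 before pregnancy, 9.28 and 10.44 at day 21 and 10.42 and 10.81 postpartum. Both pregnant livers lay below both pre-pregnancy livers, and they also lay 1.16 apart from each other. Creld2 fell in pregnancy by 1.62 ± 0.336, a 3.07-fold lower signal (limma adjusted p = 0.0209). Leaving out pregnancy replicate 2 gave -2.20 and leaving out pregnancy replicate 1 gave -1.04. The call was lost without either pre-pregnancy array, where the adjusted p reached 0.116.

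Postpartum, Creld2 was 0.755 ± 0.336 above pregnancy (limma adjusted p = 0.254) and 0.865 ± 0.336 below pre-pregnancy (log2 difference -0.865, adjusted p = 0.171). Both postpartum livers lay below both pre-pregnancy livers. Postpartum replicate 1 lay just under the higher pregnant liver, and replicate 2 lay above both pregnant livers. The difference from pregnancy was 1.335 without pregnancy replicate 2 (limma adjusted p = 0.0358) and 0.175 without pregnancy replicate 1. The difference from pre-pregnancy passed without either pregnancy array, and so in a fit of those 2 stages alone (limma adjusted p = 0.0292).

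Sdf2l1, a lumenal partner of Hspa5 and its cochaperones, also had its lowest value in pregnancy replicate 1 and its highest before pregnancy. Its levels were 9.91 and 10.16 before pregnancy, 8.98 and 9.76 at day 21 and 9.52 and 9.64 postpartum. Both pregnant and both postpartum livers lay below both pre-pregnancy livers, and the postpartum livers lay between the 2 pregnant ones. The difference was -0.665 ± 0.23 in pregnancy against pre-pregnancy (limma adjusted p = 0.096) and -0.455 ± 0.23 postpartum against pre-pregnancy (adjusted p = 0.296). Without pregnancy replicate 2 the pregnancy difference was -1.055, which passed (limma adjusted p = 0.0137). Without the other pregnant liver, replicate 1, it shrank to -0.275.

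Dnajb9 encodes ERdj4, a J-domain cochaperone of Hspa5 that Xbp1 raises and that helps to keep Ire1 inactive. It stood at 10.97 and 10.58 before pregnancy, 10.47 and 11.28 at day 21 and 11.15 and 11.45 postpartum. The pregnant livers lay on both sides of the pre-pregnancy ones, and the postpartum livers lay above them. The pregnancy difference, 0.10 with a 95% interval from -0.50 to 0.70, was 0.505 without pregnancy replicate 1 and -0.305 without pregnancy replicate 2, and it did not pass in either fit. Postpartum against pre-pregnancy gave 0.525 ± 0.258 (limma adjusted p = 0.282).

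Herpud1 was the only one of the 10 members called in the postpartum livers. It encodes an ER membrane protein of the degradation complex that hands misfolded proteins to the ubiquitin system. Its level was 12.67 and 12.40 before pregnancy, 12.48 and 12.53 at day 21 and 11.56 and 11.71 postpartum. Both postpartum livers lay below all 4 others, and the pregnant livers lay within the range of the pre-pregnancy ones. Herpud1 fell postpartum by 0.87 ± 0.124 against pregnancy, a 1.83-fold lower signal (limma adjusted p = 0.015), and by 0.90 ± 0.124 against pre-pregnancy, a 1.87-fold lower signal (adjusted p = 0.00917).

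Postpartum against pregnancy, Herpud1 was the 1 member of 10 called, against 3.29% of all genes (2.41% higher and 0.879% lower; 73.3% of the calls were higher, and 60% after quantile normalization again). Postpartum against pre-pregnancy it was again the 1 of 10, against 7.66% of all genes (3.91% higher and 3.75% lower). These comparisons share the postpartum arrays. Its other probe set gave -0.98 and -0.91, with limma adjusted p of 0.0109 and 0.00691 over all probe sets. The call against pregnancy was lost without pregnancy replicate 2 or either postpartum array (adjusted p up to 0.0904), and that against pre-pregnancy without pre-pregnancy replicate 1 (adjusted p = 0.0935), while the difference stayed between -0.945 and -0.795 and between -1.035 and -0.765 with each array left out. In pregnancy the difference was -0.03, with a 95% interval from -0.32 to 0.26.

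Xbp1, the transcription factor made active by Ire1, held nearly the same mean signal at every stage. Its level was 12.58 and 12.73 before pregnancy, 12.44 and 12.86 at day 21 and 12.56 and 12.66 postpartum. The pregnant livers lay on both sides of all 4 others. The difference in pregnancy was -0.005 with a 95% interval from -0.35 to 0.34, and its 3 other probe sets gave -0.23, -0.025 and 0.175. The probe set used, and the other that gave -0.025, are of a kind whose probes may match further sequences. The spliced form is not read separately here.

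Atf4, the transcription factor of the Perk branch, is controlled mainly at translation, which its mRNA does not show. Its mRNA level was 10.25 and 10.15 before pregnancy, 10.42 and 10.63 at day 21 and 10.40 and 10.57 postpartum. Both pregnant and both postpartum livers lay above both pre-pregnancy livers, by a small margin. The difference was 0.325 ± 0.12 in pregnancy against pre-pregnancy (limma adjusted p = 0.113) and 0.285 ± 0.12 postpartum against pre-pregnancy (adjusted p = 0.207). With the arrays quantile normalized again, the difference in pregnancy was 0.418 and passed (limma adjusted p = 0.0498). The 2 other probe sets of Atf4 gave 0.20 and 0.18 in pregnancy. The first is of a kind whose probes may match further sequences, and the second was dim, with values from 3.95 to 4.39.

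Ddit3 encodes Chop, a transcription factor downstream of Atf4 that is tied to cell death in prolonged ER stress. It stood at 7.09 and 6.91 before pregnancy, 7.70 and 7.82 at day 21 and 7.33 and 7.71 postpartum. Both pregnant livers lay above both pre-pregnancy livers, and the postpartum livers lay above the pre-pregnancy ones and overlapped the lower edge of the pregnant ones. Ddit3 rose in pregnancy by 0.76 ± 0.146, a 1.69-fold higher signal with a 95% interval from 0.42 to 1.10 on the log2 scale (limma adjusted p = 0.0162). The call was lost without either pre-pregnancy array or pregnancy replicate 2 (adjusted p up to 0.0937), with differences between 0.67 and 0.85. A second and dim probe set of Ddit3, with values from 5.18 to 5.92, gave 0.225. Postpartum against pre-pregnancy Ddit3 differed by 0.52 ± 0.146 (limma adjusted p = 0.0737), and postpartum against pregnancy by -0.24 ± 0.146 (adjusted p = 0.399).

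Trib3 encodes a pseudokinase that Atf4 and Chop raise and that dampens Atf4 and insulin signalling. Its level was 6.61 and 5.95 before pregnancy, 7.65 and 6.91 at day 21 and 7.13 and 6.46 postpartum. Both pregnant livers lay above both pre-pregnancy livers, and within each stage replicate 1 was the higher, by 0.66, 0.74 and 0.67. The difference in pregnancy was 1.00 ± 0.318 (limma adjusted p = 0.0761), with a 95% interval from 0.26 to 1.74. Its second probe set, of a kind whose probes may match further sequences, gave 0.815. Postpartum it differed by -0.485 from pregnancy (limma adjusted p = 0.435) and by 0.515 from pre-pregnancy (adjusted p = 0.398). Without pregnancy replicate 1 the difference was 0.63, and without pregnancy replicate 2 it was 1.37.

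Atf3, a stress-induced repressor that Atf4 and other signals raise, stood at 6.19 and 6.39 before pregnancy, 6.38 and 6.25 at day 21 and 6.60 and 7.20 postpartum. Both postpartum livers lay above all 4 others, and postpartum replicate 2 lay 0.60 above replicate 1. The difference was 0.585 ± 0.189 postpartum against pregnancy (limma adjusted p = 0.141) and 0.61 ± 0.189 postpartum against pre-pregnancy (adjusted p = 0.0955). Without postpartum replicate 1 the difference from pre-pregnancy was 0.91, which passed (limma adjusted p = 0.036), and without replicate 2 it was 0.31.

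In counts of arrays, 2 of 10 members did not overlap between postpartum and pregnancy, Herpud1 and Atf3, against 50.1% of all genes (25.1% higher and 25% lower postpartum). Postpartum against pre-pregnancy, 7 of 10 did not overlap, against 52.6% of all genes (30% higher and 22.6% lower postpartum): Ddit3, Atf4, Atf3 and Dnajb9 were higher postpartum, and Herpud1, Sdf2l1 and Creld2 lower. The members' median differences were 0.085 postpartum against pregnancy (all genes -0.01) and 0.12 postpartum against pre-pregnancy (all genes 0.025).

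**Figure D2:**
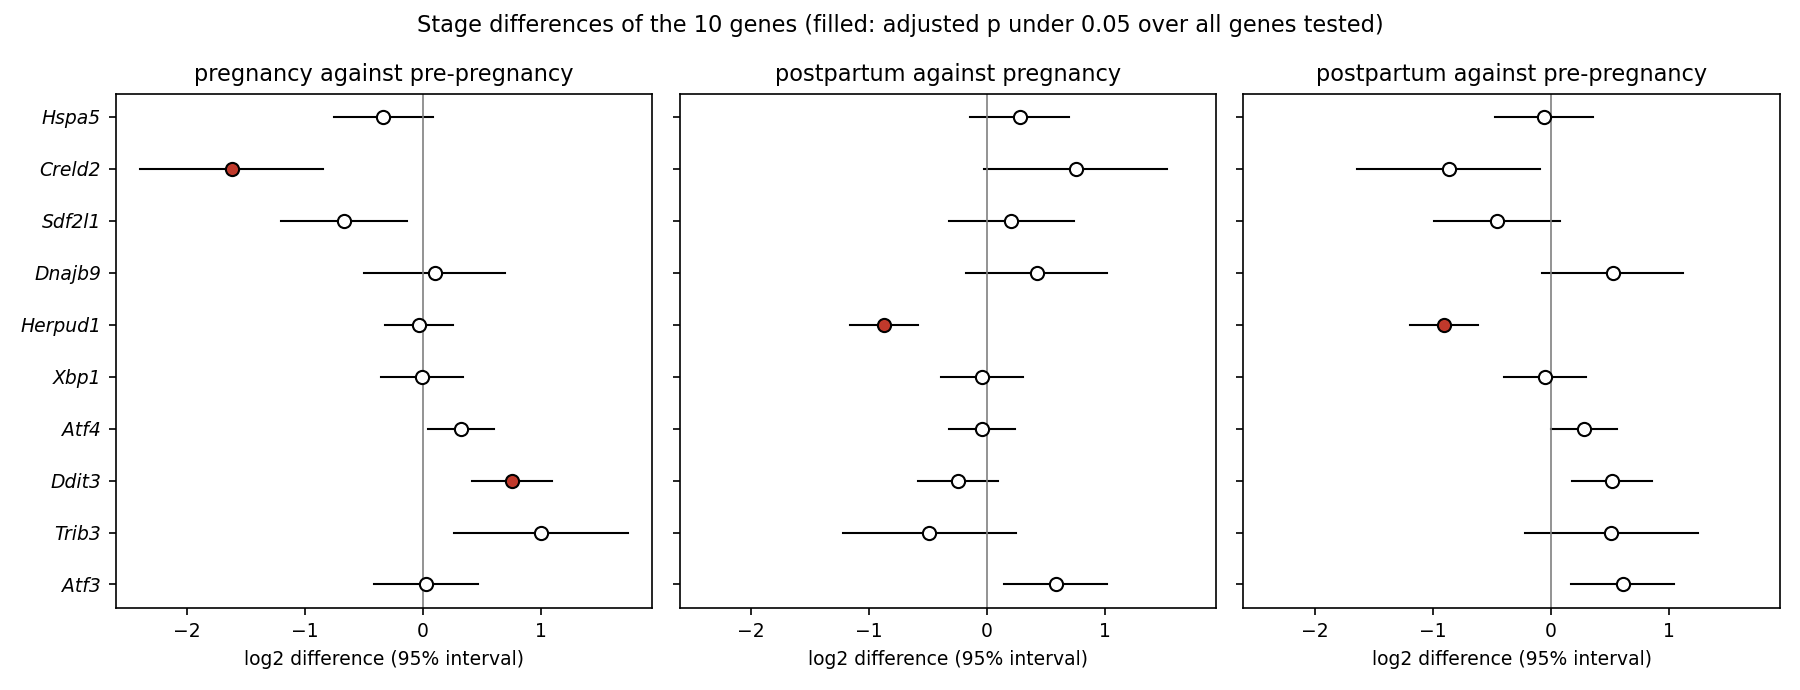
Log2 difference of each of the 10 genes in the 3 comparisons (horizontal axis), with the 95% interval of limma's fit as bars, n = 2 arrays per stage. Filled points passed an adjusted p of 0.05: Creld2 and Ddit3 in pregnancy against pre-pregnancy, and Herpud1 postpartum against pregnancy and against pre-pregnancy.

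Among the 10 members, the widest gaps between the 2 pregnant livers were in chaperone genes and Trib3. In replicate 1, 8 of the 10 members were lower than in replicate 2, against 44.8% of all genes, and the median gap was -0.315. The gap of Creld2 was larger in size than that of 99.4% of all genes, that of Dnajb9 (-0.81) than 98.5%, that of Sdf2l1 (-0.78) than 98.4%, that of Hspa5 (-0.58) than 96.5% and that of Xbp1 (-0.42) than 91.8%. Trib3 ran the other way, with 0.74 more in replicate 1, larger than 98.2%. The gaps of Atf4 (-0.21), Ddit3 (-0.12), Atf3 (0.13) and Herpud1 (-0.05) were smaller in size than those of Xbp1. The median member gap was 0.005 before pregnancy, where 5 of 10 members were lower in replicate 1 (46.5% of all genes). Postpartum it was -0.16, with 9 of 10 members lower in replicate 1 (51.7% of all genes). Taken without sign, the median member gap was 0.225 before pregnancy, 0.5 in pregnancy and 0.235 postpartum, beside 0.12, 0.14 and 0.12 over all genes. The widest before pregnancy, those of Trib3, Dnajb9 and Creld2, were larger in size than those of 99.3%, 94.6% and 91.6% of all genes. The widest postpartum, those of Trib3 and Atf3, were larger than those of 98.9% and 98.5%. Atf3 (-0.60), Ddit3 (-0.38) and Herpud1 (-0.15) were further apart postpartum than in pregnancy. These are values of single livers with no replicate of their own, and no test applies.

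The same liver was low in wider lists of ER genes. The chaperone list holds 13 genes other than the 10 members, and the degradation list holds 14. Pregnancy replicate 1 was below replicate 2 in 16 of 17 ER chaperones and cochaperones (median gap -0.26), in 10 of 10 disulfide enzymes (-0.425), in 20 of 21 genes of ER translocation and vesicle traffic (-0.27) and in 12 of 15 genes of ER-associated degradation (-0.18). The chaperone list was also lower in replicate 1 in 13 of 17 genes before pregnancy and in 16 of 17 postpartum, with smaller median gaps of -0.14 and -0.12. Among 11 genes of eIF2, its exchange factor and its kinases 5 were lower in pregnancy replicate 1, and the median gap was 0. The integrated stress response genes were lower in that liver in 21 of 31 and higher in 10 (median gap -0.14). Gaps there wider than that of Creld2 were those of Psat1 (-2.04), Aldh18a1 (-1.46), Chac1 (-1.30) and Asns (-1.18). The widest in the other direction was that of Trib3 (0.74).

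**Figure D3:**
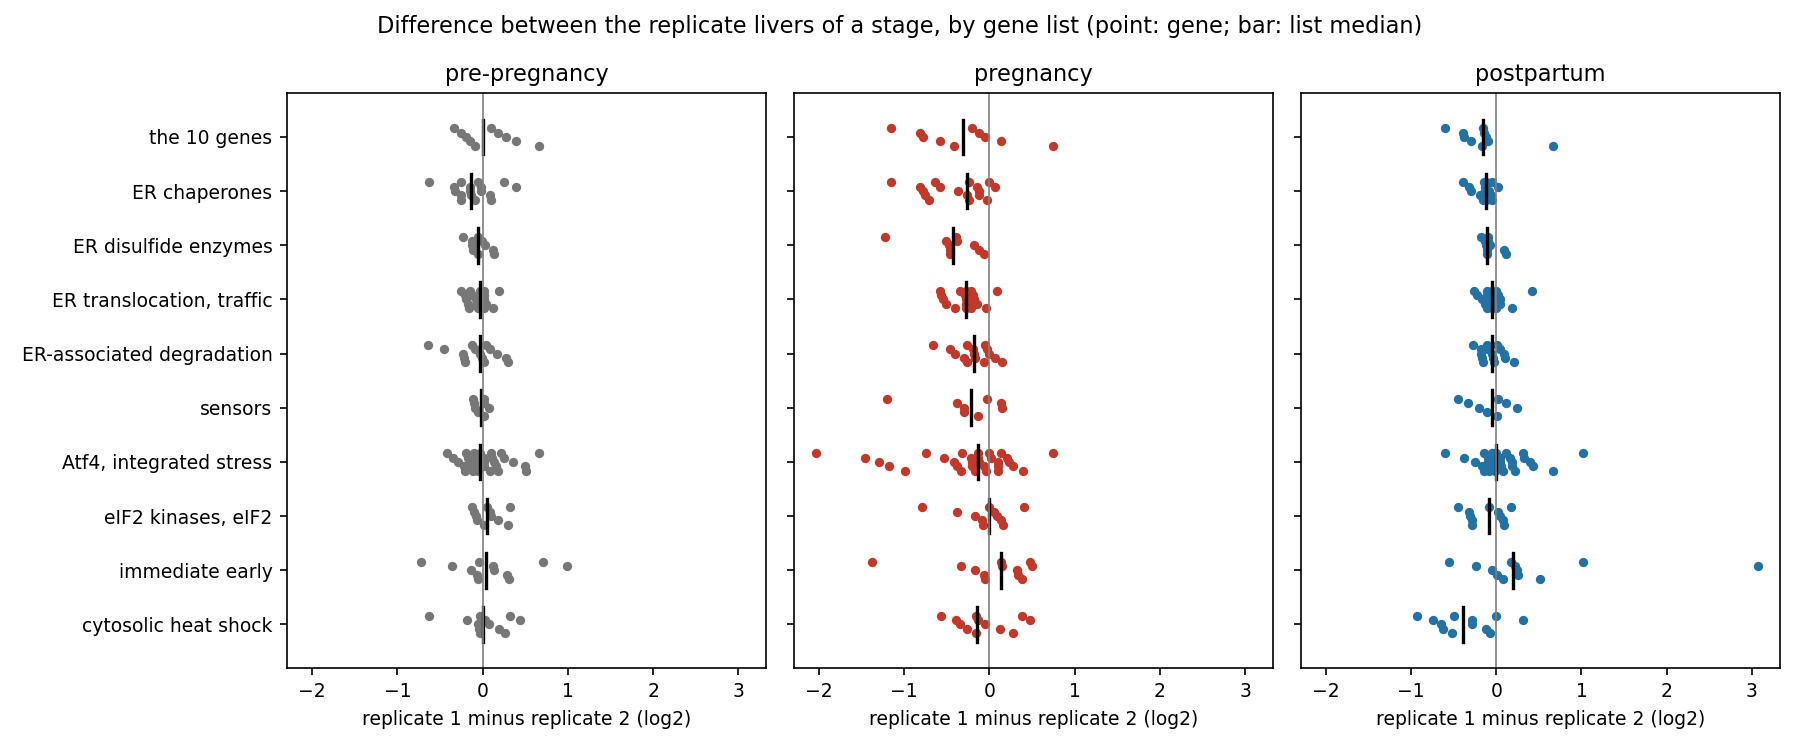
Replicate 1 minus replicate 2 (log2, horizontal axis) within each stage, for the 10 genes and for 9 gene lists, with points for single genes and bars for list medians. In pregnancy the chaperone, disulfide enzyme and translocation genes lie mostly below 0, with medians of -0.26, -0.425 and -0.27.

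The genes most like Hspa5 over the 6 arrays follow. Among 1138 genes with at least median brightness and a range of at least 1, 8 had a Pearson correlation with Hspa5 above 0.9 over the 6 arrays, and pregnancy replicate 1 was the lowest array in all 8. Most of the variation of Hspa5 is its low value in that liver, so this choice of genes brings the shared low value with it. Manf, an ER-resident protein secreted under ER stress, had 0.943, with 12.17 and 12.19 before pregnancy, 10.93 and 11.69 at day 21 and 11.88 and 12.20 postpartum. Thrsp, a regulator of lipogenesis, had 0.967, with 13.88 and 13.88 before pregnancy, 11.55 and 13.75 at day 21 and 13.91 and 13.82 postpartum. The others were Gdap10 (0.974), the steroid enzyme gene Hsd3b1 (0.942), the hepatocyte transcription factor Onecut1 (0.941), the sterol synthesis gene Msmo1 (0.931), the clock gene Per2 (0.92) and the acyl-CoA thioesterase Acot3 (0.917).

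Over the 5 arrays without that liver the correlation was 0.72 for Gdap10, 0.70 for Onecut1, 0.68 for Hsd3b1, 0.61 for Manf and 0.59 for Per2. It was 0.0043 for Msmo1, -0.073 for Acot3 and -0.23 for Thrsp. Per2 stood at 8.29 and 8.40 before pregnancy, 6.78 and 8.02 at day 21 and 7.67 and 7.80 postpartum. Among the members, the correlation with Hspa5 was 0.90 for Sdf2l1, 0.884 for Creld2, 0.718 for Xbp1 and 0.568 for Dnajb9, and -0.854 for Trib3. Without pregnancy replicate 1 these were 0.697, 0.695, 0.408, -0.331 and -0.93. The points are arrays that share their stage and their normalization, so these correlations describe the 6 arrays only. The part of Per2, Thrsp and collection time in the low chaperone values of that liver was not tested.

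Among the other genes of the pathway, the sensors were mostly uncalled. Of 8 sensors and their membrane-bound relatives, 0 were called in pregnancy against pre-pregnancy by limma, with Ern1 at 0.225 (adjusted p = 0.263), Eif2ak3 at 0.07 (adjusted p = 0.82) and Atf6 at 0.09 (adjusted p = 0.601). Creb3l2, a membrane-bound transcription factor related to Atf6, had the widest difference from pre-pregnancy of the 8 at both later stages. It stood at 7.76 and 7.87 before pregnancy, 8.30 and 9.50 at day 21 and 8.78 and 8.98 postpartum. Both later stages lay above both pre-pregnancy livers, with differences of 1.085 ± 0.324 in pregnancy (limma adjusted p = 0.064) and 1.065 ± 0.324 postpartum (adjusted p = 0.0902). Postpartum against pregnancy, 1 of 8 was called, Creb3l3, a liver relative of Atf6 that acts in lipid metabolism, which fell by 0.705 (limma adjusted p = 0.0346) and was called in 0 of the 6 fits with an array left out. Postpartum against pre-pregnancy 0 of 8 were called, with Ern1 at 0.39 (adjusted p = 0.105), Eif2ak3 at 0.465 (adjusted p = 0.168) and Atf6 at 0.155 (adjusted p = 0.453). Of 11 genes of eIF2 and its regulators, 0 were called in each of the 3 comparisons.

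Of 17 ER chaperones and cochaperones, 2 rose and 3 fell in pregnancy, against 5.46% and 8.25% of all genes. The list's median was -0.305, beside 0.045 over all genes. Those that fell were Creld2, Manf (-0.87 ± 0.23, limma adjusted p = 0.0445) and Dnajc10, a reductase with a J domain (-0.465 ± 0.0983, adjusted p = 0.0224). Sil1, the nucleotide exchange factor of Hspa5, rose by 0.565 ± 0.119 (limma adjusted p = 0.0223), and the prolyl isomerase Ppib rose by 0.45 ± 0.114 (adjusted p = 0.0387). Without pregnancy replicate 1 the counts were 2 higher and 1 lower with a median of -0.095, and without pregnancy replicate 2 they were 0 higher and 6 lower with a median of -0.435. Without either pre-pregnancy array 0 of the 17 were called. Postpartum against pre-pregnancy 1 of 17 fell, Dnajc3, the inhibitor of Perk also known as p58IPK (-0.585), where 3.75% of all genes were called lower. Postpartum against pregnancy 0 of the 17 were called, against 3.29% of all genes.

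Beside the next 2 lists, 5.46% of all genes were called higher in pregnancy and 8.25% lower. Of 10 disulfide enzymes measured, the isomerases Pdia4 (-0.585) and Pdia5 (-0.55) fell in pregnancy and the peroxiredoxin Prdx4 (0.485) rose. The counts became 2 higher and 0 lower without pregnancy replicate 1, and 0 higher and 4 lower without pregnancy replicate 2. Pdia4 was also lower postpartum against pre-pregnancy (-0.665, called). Of 21 genes of translocation and vesicle traffic, the COPII coat genes Sec24d (-0.725) and Sec23b (-0.715) and the signal peptidase subunit Spcs3 (-0.455) fell in pregnancy, and the retrieval receptor Kdelr1 (0.435) rose. These counts were 1 higher and 0 lower without pregnancy replicate 1, and 0 higher and 3 lower without pregnancy replicate 2. All pregnancy calls of these disulfide, translocation and traffic genes were lost without either pre-pregnancy array. Sec23b rose postpartum against pregnancy (0.78 over all arrays). That call held without pregnancy replicate 2 (1.035) and was lost without any other array, with 0.525 without pregnancy replicate 1.

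Of 15 genes of ER-associated degradation, 2 rose and 1 fell in pregnancy, against 5.46% and 8.25% of all genes. Erlec1, a lectin that recognises trimmed glycans, rose by 0.74 ± 0.149 (limma adjusted p = 0.0187), Edem1, which directs misfolded glycoproteins to degradation, rose by 0.655 ± 0.109 (adjusted p = 0.0102), and Derl3, a membrane component of the exit channel, fell by 0.60 ± 0.156 (adjusted p = 0.0419). Postpartum against pregnancy Herpud1 and Erlec1 (-0.855) fell, where 0.879% of all genes were called lower. Postpartum against pre-pregnancy Herpud1 and Derl3 (-0.765) fell and Edem1 (0.465) rose, where 3.75% of all genes were called lower and 3.91% higher. In pregnancy the calls of Erlec1 and Edem1 were lost without either pre-pregnancy array, and that of Erlec1 also without pregnancy replicate 2. The pregnancy call of Derl3 was lost without any 1 of the 6 arrays. Postpartum, the call of Erlec1 against pregnancy was kept only without pregnancy replicate 1. The calls of Derl3 and Edem1 against pre-pregnancy were lost without either pre-pregnancy or either postpartum array.

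The calls among the wider set of Atf4-linked genes, the integrated stress response, were mostly rises in pregnancy. Of 31 genes, 8 rose in pregnancy and 1 fell, against 5.46% and 8.25% of all genes, and the list's median was 0.325, beside 0.045 over all genes. Atf5, a transcription factor close to Atf4, stood at 10.63 and 10.98 before pregnancy, 12.63 and 12.53 at day 21 and 12.12 and 12.21 postpartum. Both pregnant livers lay above both postpartum livers, and these above both pre-pregnancy livers. Atf5 rose in pregnancy by 1.775 ± 0.135, a 3.42-fold higher signal (limma adjusted p = 0.00065).

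Fgf21, a hepatic hormone of fasting and amino acid shortage, was at 6.39 and 6.48 before pregnancy, 8.20 and 7.81 at day 21 and 6.29 and 6.25 postpartum. Its high values were in the pregnant livers alone among these 6. Fgf21 rose in pregnancy by 1.57 ± 0.14 (limma adjusted p = 0.00128) and fell postpartum against pregnancy by 1.735 (adjusted p = 0.00249). Ddit4, an inhibitor of mTORC1 that glucocorticoids also raise, was at 7.17 and 6.67 before pregnancy, 8.45 and 8.17 at day 21 and 8.35 and 8.60 postpartum. Its pregnant and postpartum livers overlapped, and both lay above the pre-pregnancy livers. Ddit4 rose by 1.39 ± 0.185 in pregnancy (limma adjusted p = 0.00457) and by 1.555 postpartum against pre-pregnancy (adjusted p = 0.00597). Sars, the seryl-tRNA synthetase, rose by 0.825 ± 0.104 in pregnancy (limma adjusted p = 0.0039).

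Ddit3 was among the 8 that rose, and Nupr1, Phgdh and Sesn2 completed them. Cebpb, a liver transcription factor and dimer partner of Chop, fell by 0.605 in pregnancy and by 0.96 postpartum, both against pre-pregnancy. Postpartum against pre-pregnancy, 5 of the 31 rose and 2 fell, beside 3.91% and 3.75% of all genes. The 5 were Atf5 (1.36), Ddit4 (1.555), Sars, Vldlr and Aldh18a1 (2.375 ± 0.469, limma adjusted p = 0.0256), an enzyme of proline synthesis, and the glutathione-degrading enzyme Chac1 fell with Cebpb (-1.645 ± 0.38, adjusted p = 0.0415). The calls of Aldh18a1 (1.865 to 2.885 with each array left out) and Chac1 (-1.90 to -1.39) were lost without either pre-pregnancy or either postpartum array. Postpartum against pregnancy, Vldlr, a lipoprotein receptor, rose by 1.26 (limma adjusted p = 0.00259), and Fgf21 and Phgdh fell. In that comparison 2.41% of all genes were called higher and 0.879% lower.

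With each array left out in turn, the 31 genes gave between 4 and 11 higher and between 0 and 1 lower in pregnancy. Without pre-pregnancy replicate 1 the counts were 4 and 0, without pre-pregnancy replicate 2 they were 5 and 1, and without pregnancy replicate 1 they were 11 and 1. Of the 28 genes of all 9 lists called in pregnancy, other than the 10 members, Atf5, Fgf21, Ddit4 and Sars stayed past the threshold in each of the 6 fits. This was so for Fgf21 and Vldlr, of 8, postpartum against pregnancy, and for Ddit4, Atf5 and Vldlr, of 13, postpartum against pre-pregnancy.

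**Figure D4:**
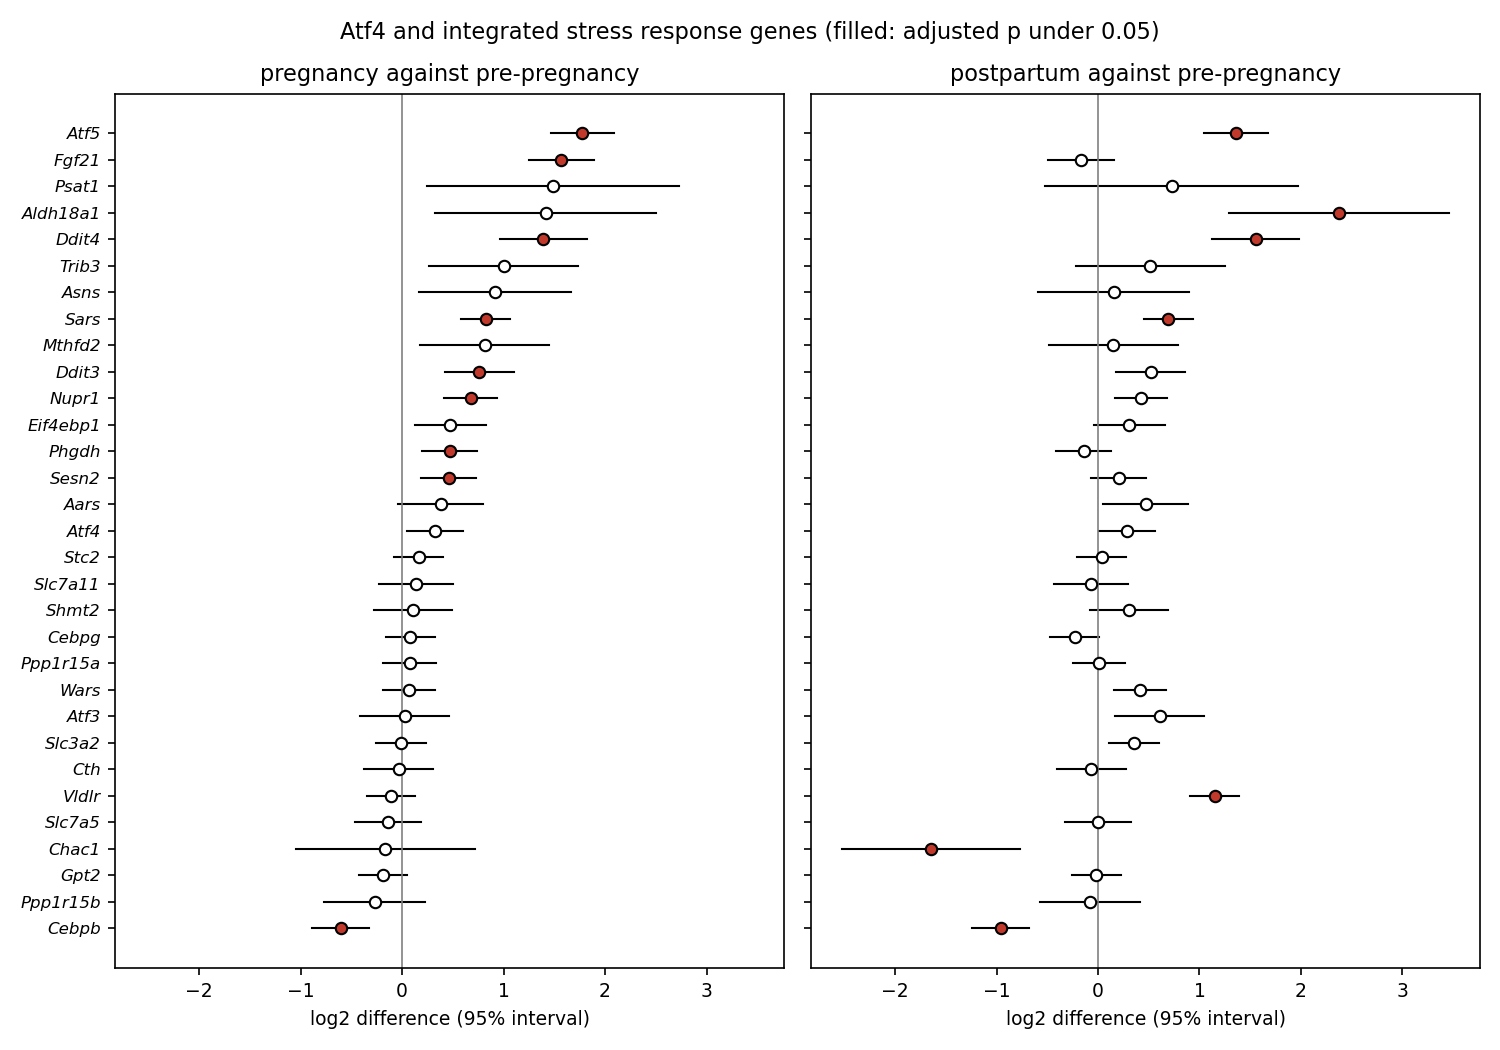
Log2 difference of the 31 integrated stress response genes (horizontal axis) in pregnancy against pre-pregnancy on the left and postpartum against pre-pregnancy on the right, with 95% intervals from limma's fit as bars and points filled where the adjusted p was under 0.05. The 8 that rose in pregnancy are led by Atf5 (1.775), Fgf21 (1.57) and Ddit4 (1.39), and Cebpb (-0.605) is the 1 that fell.

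Markers of cells other than hepatocytes were measured beside these genes. Over all genes 5.46% were called higher in pregnancy and 8.25% lower. Of 10 pancreatic acinar markers, 2 rose in pregnancy and 1 fell, and the list's mean log2 level was 5.72 and 5.74 in pregnancy, against 5.31 and 5.32 before it. Cela3b, an acinar protease gene, rose by 3.035, Pnliprp1 rose by 0.86, and Cela1 fell by 1.18. Cela3b weighs most in the rise of the mean, and the list's median difference was 0.265. Cela2a (-0.045) and Cpb1 (0.035) hardly moved. Pnliprp1 was dim, below the array medians, at 3.64 and 3.56 before pregnancy and 4.31 and 4.61 in it. The summed linear level of the list, in which the brightest probe sets weigh most, was 1421 and 1655 in pregnancy, against 1613 and 1705 before it. Of 8 markers of B cells and plasma cells, 1 rose (Ighm), and the sum was 3707 and 3877 in pregnancy, against 3264 and 3633 before it. By far the brightest of the 8 was Sdc1, at 11.51 and 11.68 before pregnancy and 11.64 and 11.70 in it. That sum is therefore mostly Sdc1, which was not called (0.075), and says little of the other markers.

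Of 8 neutrophil markers, Mpo (0.465) and S100a9 (0.74) rose in pregnancy, where 5.46% of all genes were called higher and 8.25% lower. Mpo was dim, below the array medians, at 4.30 and 4.40 before pregnancy and 4.81 and 4.82 in it. The neutrophil list's median was 0.34, and its sum was 408 and 424 in pregnancy, against 298 and 322 before it. The endothelial list had 4 of 10 lower in pregnancy and a median difference of -0.4325, with sums of 4957 and 4996, against 7173 and 5815. Clec4g weighs most in these sums, at 11.99 and 11.51 before pregnancy and 11.35 and 11.34 in it. It was not called (limma adjusted p = 0.124), and Stab2 (0.06) and Eng (0.115) did not fall. The Kupffer cell list had 2 of 11 lower, with sums of 9890 and 7958, against 10301 and 10749, and the stellate cell list had 1 of 10 lower (Lrat, -1.47).

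Postpartum against pre-pregnancy, Marco rose (1.03) and Timd4 fell (-0.61) among the Kupffer cell markers, with sums of 10397 and 11023, against 10301 and 10749. The acinar Cela1, the endothelial Bmp2 and, in the other direction, Ighm were also called. In that comparison 3.91% of all genes were called higher and 3.75% lower. The bile duct list had 0 of 6 called, with sums of 346 and 174 postpartum, against 174 and 149 before pregnancy. Postpartum against pregnancy, Cela3b, Pnliprp1 and S100a9 fell, where 0.879% of all genes were called lower. The part of these cells in the differences of the 10 genes was not tested.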

How the data were processed

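Total RNA was extracted with Trizol, and 250 ng per array was labelled with biotin for Affymetrix mouse arrays, per the labels' protocols. The deposited values are log2 signals of 45101 probe sets, made by the authors with RMA and Affymetrix Power Tools, per the submitters' processing notes, whose versions are not stated here. The log2 base was inferred from the values. RMA usually sets all arrays to the same distribution, so a change shared by most genes would not show.

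The platform annotation gave 1 symbol to 34958 probe sets, several to 932 and none to 9211, and the first were reduced to 18194 genes by the highest mean. limma 3.58.1 in R 4.3.3 fitted a mean per stage over all 6 arrays (3 residual and 4.80 prior degrees of freedom), with Benjamini-Hochberg adjustment over all genes. The labels call the replicates biological and say no more of the animals. The number of arrays limits the precision.

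The 10 genes and the pathway and marker lists were chosen with earlier results of these data known. By rule, all 10 genes, up to 4 called genes of each list by size in each comparison, 3 sensors and the 8 genes most like Hspa5 were named. Nupr1, Phgdh, Sesn2, Cebpb, Sars, Vldlr, Creb3l2, Psat1, Asns and the marker genes were also named after their values were seen. They were named to complete counts or for their size. Alternatives were a block for the replicate number, brightness filters, other normalizations, other probe sets, other fits, a threshold of 0.1 and leaving out each array. The fits were tested on simulated data. Promoters and gene symbols come from RefSeq.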

Additional observations from a re-analysis of the deposited data

How the results depend on the processing

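The arrays' replicate numbers were not shown to pair the samples (correlations of same-numbered deviations 0.0285, 0.111 and -0.0273), and with the replicate block 4 members were called in pregnancy against pre-pregnancy (Ddit3, Trib3, Sdf2l1 and Creld2) and 3 postpartum against pre-pregnancy (Trib3, Herpud1 and Creld2). Members called in pregnancy against pre-pregnancy numbered 1 with a trended and robust variance (Ddit3), 1 with the mean of all probe sets (Creld2) and 3 with quantile normalization again (Ddit3, Atf4 and Creld2). Fitting only the 2 groups compared gave 2 members postpartum against pre-pregnancy (Herpud1 and Creld2) and 203 genes postpartum against pregnancy, against 599 in the fit over all arrays. At a threshold of 0.1 the members called were 4 in pregnancy and 3 postpartum, both against pre-pregnancy, and all genes called were 4066 in pregnancy against pre-pregnancy, and postpartum 1337 against pregnancy and 2489 against pre-pregnancy. Every probe set by itself gave 4475 and 2679 calls in pregnancy and postpartum against pre-pregnancy, where the fit per gene gave 2494 and 1393. Leaving out each array gave 323 to 1977 genes and 0 to 3 members in pregnancy against pre-pregnancy, 115 to 528 and 0 to 1 postpartum against pregnancy, and 73 to 1582 and 0 to 2 postpartum against pre-pregnancy. Quantile normalization again moved the share of calls that were higher to 52.8% in pregnancy against pre-pregnancy, where it was 39.8%, and to 60% postpartum against pregnancy, where it was 73.3%. Differences between pregnancy and pre-pregnancy that changed sign had passed no test: Xbp1 (0.032) and Herpud1 (0.025) under quantile normalization again, Atf3 (-0.01) with arrays centred on medians, Herpud1 (0.02) with the mean of all probe sets, and, for other probe sets, Xbp1 (0.175), Herpud1 (0.07) and Hspa5 (0.19). Postpartum against pregnancy these were Atf6 under quantile normalization again (-0.01), Atf4 (0.047) and Atf6 (-0.022) with the mean of all probe sets, and Xbp1 (0.01) and Atf4 (0.28) for other probe sets. Postpartum against pre-pregnancy they were Hspa5 (0.0067) and Atf6 (-0.013) with the mean of all probe sets, and Xbp1 (0.185), Ddit3 (-0.02) and Hspa5 (0.255) for other probe sets. Leaving out arrays also turned signs. In pregnancy against pre-pregnancy Xbp1 ranged between -0.215 and 0.205, Atf3 between -0.075 and 0.125, Herpud1 between -0.165 and 0.105, Dnajb9 between -0.305 and 0.505, and Eif2ak3 between -0.12 and 0.26. Postpartum against pregnancy Hspa5 ranged between -0.01 and 0.57, Atf4 between -0.145 and 0.065, Xbp1 between -0.25 and 0.17, Sdf2l1 between -0.18 and 0.60, and Atf6 between -0.005 and 0.135. Postpartum against pre-pregnancy Hspa5 ranged between -0.125 and 0.015 and Xbp1 between -0.12 and 0.03. In each of these reversals the cause was not tested. The 2 arrays per stage limit the precision, and no background level was measured.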

Other observations

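Chaperones outside the ER were measured beside those of the response. Of 12 genes of the cytosolic and mitochondrial heat shock system, 3 fell in pregnancy against pre-pregnancy and 0 rose, beside 8.25% and 5.46% of all genes. Hspa4l, an Hsp110 chaperone, was at 7.56 and 7.09 in pregnancy, against 8.28 and 8.47 before it, and fell by 1.05 ± 0.16 (limma adjusted p = 0.00768). Hsp90aa1, the inducible Hsp90, fell by 0.58 (adjusted p = 0.0316), and Hspe1, the mitochondrial cochaperonin, fell by 0.455 (adjusted p = 0.0281). Postpartum, Hspa4l rose by 0.865 against pregnancy (adjusted p = 0.0333), and the cochaperone Bag3 rose by 1.245 against pregnancy (adjusted p = 0.0346) and by 1.195 against pre-pregnancy (adjusted p = 0.0247). Bag3 was at 9.91 and 10.65 postpartum, against 8.84 and 9.23 in pregnancy. The pregnancy calls were lost without either pre-pregnancy array. That of Hspe1 was also lost without either pregnancy array, and that of Hsp90aa1 without pregnancy replicate 1. The postpartum calls of Hspa4l and Bag3 against pregnancy each held in 1 of the 6 fits with an array left out.

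Of 12 immediate early genes, 2 rose and 1 fell in pregnancy against pre-pregnancy, beside 5.46% and 8.25% of all genes. Junb, a subunit of AP-1, was at 7.12 and 6.99 in pregnancy, against 6.15 and 5.84 before it (difference 1.06 ± 0.288, limma adjusted p = 0.0486). Klf6, a zinc finger factor, rose by 0.885 (adjusted p = 0.007), and the phosphatase gene Dusp1 fell by 0.81 (adjusted p = 0.0119). Ier3 was the 1 of 12 that rose postpartum against pre-pregnancy (0.725, limma adjusted p = 0.0228), beside 3.91% of all genes. The pregnancy calls of Junb, Klf6 and Dusp1 were lost without either pre-pregnancy array, and that of Junb also without either pregnancy array.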
